A study of Bos taurus with 31 samples.

Results

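The genes described here are 10 genes of the NRF2 pathway and of carbonyl reduction in the bovine liver, namely *NFE2L2*, *KEAP1*, *NQO1*, *HMOX1*, *GCLC*, *GCLM*, *TXNRD1*, *SRXN1*, *CBR1* and *CBR3*. They were taken by symbol from the gene count table, which held 24616 genes, and each symbol matched 1 row. All 10 passed the filter of at least 20 assigned reads summed over the cows, which left 15916 genes for testing.

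RNA was sequenced from liver biopsies of 31 lactating German Holstein cows, with 1 library per cow, taken at the last sampling of a feeding trial. Cows received a total mixed ration that was either a control (CON) or contained feedstuffs with residues of a glyphosate formulation (GLY), each with a high (HC) or a low (LC) concentrate feed proportion (CFP). The groups were CONHC (n = 8), CONLC (n = 8), GLYHC (n = 8) and GLYLC (n = 7). All cows ate silage, straw and concentrate, so that the LC groups differed from the HC groups in the forage share as well, and glyphosate was given as residues of a product and not as the pure compound. The comparisons asked how the ration with residues and the CFP were related to gene expression in the liver.

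NRF2, the protein encoded by *NFE2L2*, is a transcription factor that is held in the cytoplasm and marked for degradation by KEAP1. Oxidants and electrophiles modify KEAP1, after which NRF2 accumulates in the nucleus and binds antioxidant response elements of genes for quinone reduction, glutathione synthesis and the thioredoxin system. Carbonyl reductases are enzymes that reduce carbonyl groups of quinones, lipid aldehydes and drugs with NADPH. In the liver this set of genes is part of the response to xenobiotics.

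The libraries held between 11675775 and 36675542 assigned reads, with a median of 19781078. Hepatocyte genes summed to between 106099 and 214068 CPM per cow (CPM, assigned reads scaled to a common library total), so that the defining markers of the labelled tissue were present in every library. A pair of libraries stood apart in the wider tissue makeup. Markers of intestinal epithelium summed to 390 CPM in the GLYLC cow 912 and to at most 38.1 CPM in every other cow, and markers of stellate cells and fibroblasts summed to 2228 CPM in the CONLC cow 103 and to at most 487 CPM elsewhere. In the members themselves the CONLC cow 260 was the most divergent animal, since it had the highest level of all 31 cows in 5 of the 10 genes. The main results that these cows move are given with and without them. In bulk tissue, fewer cells of a type and less RNA per cell cannot be told apart.

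Levels are given as CPM after TMM scaling of the library sizes. Levels are not comparable between genes, because they are not divided by gene length. A gene was called differentially expressed (DEG) at an unadjusted p under 0.05 together with a Benjamini-Hochberg adjusted p under 0.1 in edgeR's quasi-likelihood test, adjusted over all 15916 genes. Log2 fold changes are given with their standard error (SE).

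Between HC and LC over all cows, 2 of the 10 genes were DEGs, against 1.45% of all genes tested. These were the carbonyl reductases, of which *CBR1* was lower in HC (0.773% of all genes were DEGs in that direction) and *CBR3* was higher (0.679% of all genes). At an unadjusted p under 0.05, *NQO1*, *TXNRD1* and *SRXN1* were also lower in HC, which gave 5 of 10 genes against 13.7% of all genes. The members were chosen with earlier results of these data known, and the paper lists *CBR1* and *CBR3* among its CFP-responsive genes. It also names *NQO1* among the CFP-responsive genes that it related to blood and performance values. The shares here and below are therefore descriptive and do not test the set. The median log2 difference of the 10 genes was -0.10, and that of all genes was -0.01. For the ration with residues against CON over all cows, no member passed either threshold (0 of 10 genes at an unadjusted p under 0.05 in edgeR, against 3.92% of all genes).

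**Figure D1:**
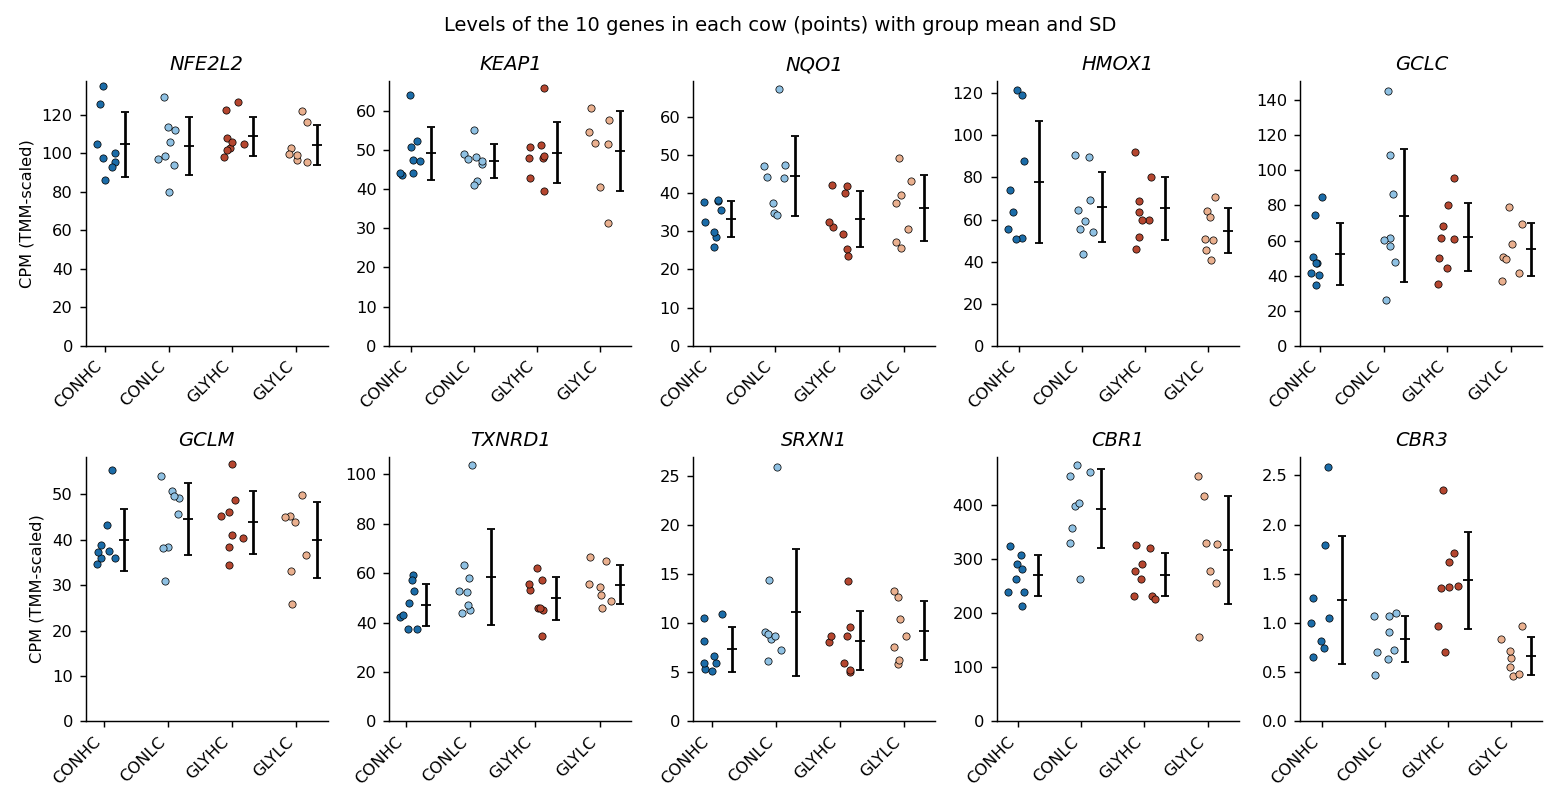
Levels of the 10 genes (CPM, y axes from 0) in the 4 feeding groups. Each point is 1 cow, and the bar gives the group mean with its SD (n = 8, 8, 8 and 7). *CBR1* points of the HC groups lie between 214 and 327 CPM, while those of CONLC reach 474 CPM, and the single GLYLC point at 157 CPM is cow 912.

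*NFE2L2* and *KEAP1*, the transcription factor and its inhibitor, showed the least spread among the members. *NFE2L2* ranged from 85.9 to 135 CPM in CONHC (median 98.9), from 80.0 to 129 CPM in CONLC (median 102), from 98.0 to 127 CPM in GLYHC (median 106) and from 95.4 to 122 CPM in GLYLC (median 99.4). *KEAP1* ranged from 43.6 to 64.0 CPM in CONHC (median 47.3), from 40.9 to 55.0 CPM in CONLC (median 47.4), from 39.6 to 65.9 CPM in GLYHC (median 48.2) and from 31.3 to 60.7 CPM in GLYLC (median 51.7). All groups overlapped in both genes. The *KEAP1* medians of the GLY groups lay above those of the CON groups, while the *NFE2L2* medians did not follow the ration. The biological coefficient of variation was 14.3% for *NFE2L2* and 16.3% for *KEAP1*, while the other members had values between 18.4% and 35.7%. For HC minus LC, the log2 difference of *NFE2L2* was 0.04 (95% interval -0.10 to 0.17) and that of *KEAP1* was 0.03 (-0.13 to 0.19). For GLY minus CON it was 0.03 (-0.10 to 0.17) and 0.04 (-0.12 to 0.20). The intervals thus ended within 0.20 of no difference on the log2 scale.

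*NQO1* encodes a quinone reductase that transfers a pair of electrons from NAD(P)H and is a widely used readout of NRF2. It ranged from 25.7 to 38.1 CPM in CONHC (median 34.0), from 34.1 to 67.1 CPM in CONLC (median 44.0), from 23.6 to 42.1 CPM in GLYHC (median 31.7) and from 25.5 to 49.1 CPM in GLYLC (median 37.3). All 8 CONLC cows lay above the CONHC median, and 5 of them lay above every CONHC cow, whereas the GLY groups overlapped over most of their range. The log2 difference between CONHC and CONLC was -0.42 (SE 0.15, adjusted p = 0.647 in edgeR), and over all cows HC minus LC was -0.28 (SE 0.11, unadjusted p = 0.0152, adjusted p = 0.234 in edgeR). Without cow 260, which held the highest level of 67.1 CPM, the difference over all cows was -0.22 (adjusted p = 0.288 in edgeR). Between GLYHC and GLYLC it was -0.12 (SE 0.15).

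*HMOX1* encodes heme oxygenase 1, which opens the heme ring and releases iron and biliverdin. Its levels ranged from 50.7 to 122 CPM in CONHC (median 68.8), from 43.7 to 90.7 CPM in CONLC (median 62.1), from 45.8 to 92.4 CPM in GLYHC (median 61.8) and from 40.7 to 70.7 CPM in GLYLC (median 50.8). The lowest group median was that of GLYLC, but every group overlapped with every other. *HMOX1* had the largest difference of the 10 genes in GLY minus CON, with a log2 value of -0.26 (SE 0.13, unadjusted p = 0.0545, adjusted p = 0.9999 in edgeR). HC minus LC was 0.25 (SE 0.13, unadjusted p = 0.0693, adjusted p = 0.410 in edgeR).

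*GCLC* and *GCLM* encode the catalytic and the modifier subunit of glutamate-cysteine ligase, the rate-limiting enzyme of glutathione synthesis. *GCLC* ranged from 34.6 to 84.7 CPM in CONHC (median 47.1), from 26.1 to 145 CPM in CONLC (median 60.9), from 35.3 to 95.5 CPM in GLYHC (median 61.1) and from 36.9 to 79.2 CPM in GLYLC (median 50.3). The CONLC group held both the lowest cow (169) and the highest cow (260) of all sequenced cows. *GCLM* ranged from 34.8 to 55.5 CPM in CONHC (median 37.5), from 31.0 to 54.1 CPM in CONLC (median 47.5), from 34.4 to 56.8 CPM in GLYHC (median 43.1) and from 25.9 to 49.8 CPM in GLYLC (median 43.8). With all cows in the fit, neither subunit passed a threshold in any of the 7 contrasts. The subunits differed in spread, with a biological coefficient of variation of 35.3% for *GCLC* and 18.4% for *GCLM*. For *GCLC* the log2 difference between HC and LC was -0.50 within CON cows (SE 0.25) and 0.17 within GLY cows (SE 0.26), and the interaction was 0.67 (95% interval -0.08 to 1.41, unadjusted p = 0.0779, adjusted p = 0.999 in edgeR). Without cow 260 the *GCLC* value within CON cows was -0.28 and the interaction was 0.45. Over all refits that left out 1 cow, these values ran from -0.63 to -0.28 and from 0.45 to 0.80. The value within CON cows had an unadjusted p under 0.05 in edgeR in 5 of 31 refits. Within GLY cows the *GCLC* value was 0.05 without GLYHC cow 159, 0.09 without cow 912 and 0.29 without GLYLC cow 209.

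*TXNRD1* encodes cytosolic thioredoxin reductase and *SRXN1* encodes sulfiredoxin, which repairs overoxidised peroxiredoxins. *TXNRD1* ranged from 37.4 to 59.3 CPM in CONHC (median 45.4), from 43.9 to 104 CPM in CONLC (median 52.8), from 34.4 to 62.0 CPM in GLYHC (median 49.6) and from 45.8 to 66.5 CPM in GLYLC (median 54.6). *SRXN1* ranged from 5.10 to 10.9 CPM in CONHC (median 6.33), from 6.21 to 25.9 CPM in CONLC (median 8.81), from 5.02 to 14.3 CPM in GLYHC (median 8.42) and from 5.88 to 13.3 CPM in GLYLC (median 8.74). In both genes the upper end was cow 260. HC minus LC was -0.23 for *TXNRD1* (SE 0.10, adjusted p = 0.313 in edgeR) and -0.40 for *SRXN1* (SE 0.19, adjusted p = 0.336 in edgeR). Without cow 260 these values were -0.15 and -0.24, and the unadjusted p in edgeR was 0.0891 for *TXNRD1* and 0.137 for *SRXN1*. Other single cows mattered too. Of the 31 refits that each left out 1 cow, 23 kept an unadjusted p under 0.05 in edgeR for *TXNRD1* and 18 for *SRXN1*. Within the CON cows, *SRXN1* went from -0.60 to -0.29 and *TXNRD1* from -0.31 to -0.13 when this cow was left out.

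*CBR1* encodes the main cytosolic carbonyl reductase. It ranged from 214 to 323 CPM in CONHC (median 273), from 264 to 474 CPM in CONLC (median 402), from 227 to 327 CPM in GLYHC (median 271) and from 157 to 454 CPM in GLYLC (median 329). Of the 15 LC cows, 11 lay above every HC cow, of which 7 were CONLC and 4 were GLYLC animals. The HC groups had almost equal medians, while the LC groups were more scattered, and the lowest *CBR1* level of all sequenced cows was that of the LC cow 912. *CBR1* was 0.763-fold in HC against LC, with a log2 difference of -0.39 (SE 0.11, 95% interval -0.61 to -0.17, adjusted p = 0.0948 in edgeR). This value lay close to the limit: *CBR1* remained a DEG in 8 of 31 refits that each left out 1 cow, with adjusted p between 0.0340 and 0.152 in edgeR, although its log2 difference stayed between -0.45 and -0.35. Without cow 912 the adjusted p was 0.0340, and without cows 260 and 912 it was 0.0294 in edgeR. With no filter on low counts it was 0.108.

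Within the CON cows, *CBR1* was lower in HC with a log2 difference of -0.54 (SE 0.15, adjusted p = 0.395 in edgeR). Within the GLY cows the difference was -0.23 (SE 0.15, adjusted p = 0.576 in edgeR), and -0.35 without cow 912 (adjusted p = 0.515 in edgeR). The difference between these values was not detectable, as the interaction was 0.32 with a 95% interval from -0.13 to 0.76 (adjusted p = 0.999 in edgeR).

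*CBR3* encodes a close paralog of *CBR1* with a narrower range of substrates, and moved in the opposite direction. It was weakly expressed, with between 6 and 47 assigned reads per cow and a median of 18. It ranged from 0.650 to 2.58 CPM in CONHC (median 1.03), from 0.472 to 1.10 CPM in CONLC (median 0.815), from 0.705 to 2.35 CPM in GLYHC (median 1.37) and from 0.463 to 0.972 CPM in GLYLC (median 0.642). Of the 16 HC cows, 9 lay above every LC cow, and all 8 GLYHC cows lay above the GLYLC median. *CBR3* was 1.75-fold higher in HC, with a log2 difference of 0.81 (SE 0.19, 95% interval 0.42 to 1.199, adjusted p = 0.0548 in edgeR). It remained a DEG in 31 of 31 refits that left out 1 cow, with adjusted p between 0.0346 and 0.0939 in edgeR.

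Within the GLY cows, *CBR3* was 2.09-fold higher in HC by the fitted value, with a log2 difference of 1.06 (SE 0.27, adjusted p = 0.106 in edgeR). This missed the threshold, and in that contrast 0.201% of all genes were DEGs (0.0377% higher in HC) and 0 of the 10 members were. It passed when CONHC cow 208 (adjusted p = 0.0959), GLYHC cow 37 (0.0766) or GLYLC cow 209 (0.0702) was left out in edgeR, and in DESeq2 on all cows (adjusted p = 0.0541). Within the CON cows the log2 difference of *CBR3* was 0.57 (SE 0.26, adjusted p = 0.808 in edgeR). Without cow 208, which had the highest level of 2.58 CPM, this value was 0.32. The *CBR3* interaction was 0.50 (95% interval -0.27 to 1.27).

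**Figure D2:**
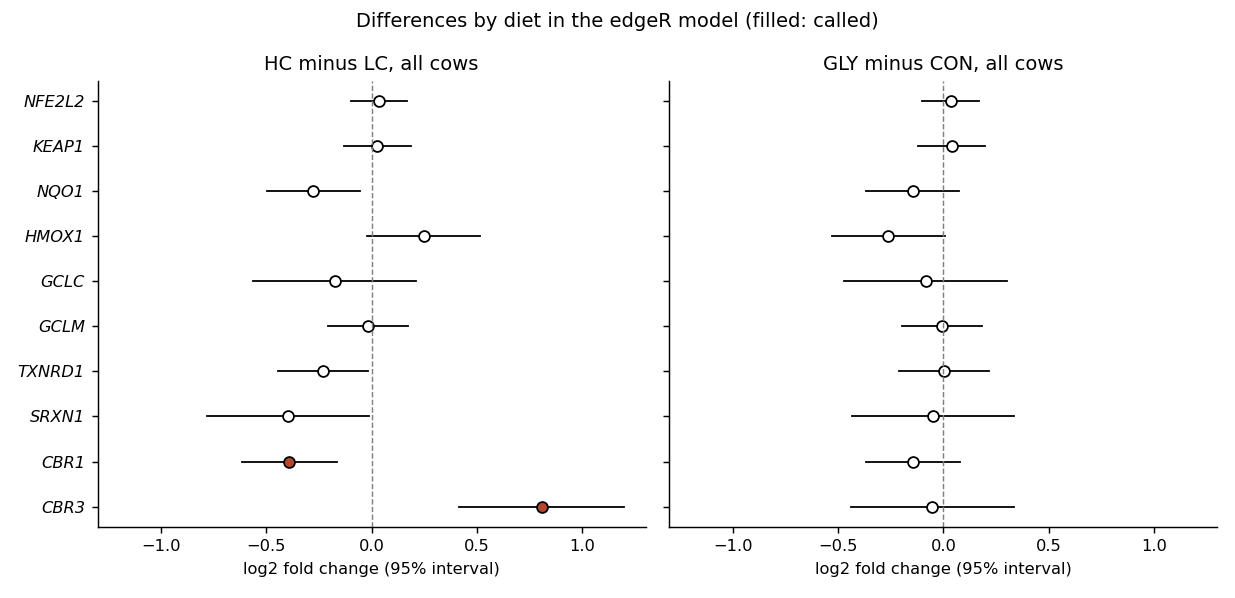
Log2 fold changes of the 10 genes with their 95% intervals from the edgeR model, for HC minus LC (left) and GLY minus CON (right) over all 31 cows. Filled points mark the 2 DEGs, *CBR1* at -0.39 and *CBR3* at 0.81 on the left, and no point is filled on the right.

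In the RefSeq gene order, *CBR1* and *CBR3* lie in the same cluster on chromosome 1, with 2 protein-coding genes and 3 pseudogenes between them and with *SETD4* on the far side of *CBR1*. For HC minus LC the log2 difference of *SETD4* was -0.04 (SE 0.08), and that of *MGC127133*, a gene between the reductases, was -0.46 (SE 0.55). *MGC127133* varied from 2.05 to 77.2 CPM between cows, and neither gene was a DEG. Only uniquely mapped reads had been counted, so that reads which fit several of these related copies were not part of the levels.

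Over the remaining contrasts, 0 of the 10 genes were DEGs. Between CONHC and CONLC, 5 of 10 had an unadjusted p under 0.05 (*CBR1*, *NQO1*, *SRXN1* and *TXNRD1* lower, *CBR3* higher in HC), against 5.96% of all genes, and DEGs made up 0% of all genes. DESeq2 on only these groups called *CBR1* (adjusted p = 0.00390) and *NQO1* (adjusted p = 0.0973), while DESeq2 on all cows called neither. These are cows that also enter the comparison over all cows, so the 5 genes do not repeat it in other animals. Between GLYHC and GLYLC, *CBR3* alone had an unadjusted p under 0.05 with all cows in the fit (1 of 10 genes, against 12.5% of all genes). With 1 cow left out, *CBR1* also had one in 1 of 31 refits in edgeR, and *CBR3* in 31 of 31.

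For the ration with residues, the members were at 0 of 10 at an unadjusted p under 0.05 between GLYHC and CONHC (2.92% of all genes, and DEGs 0%), between GLYLC and CONLC (5.65%, and DEGs 0.0628%, with 0.00628% lower in GLYLC) and in the interaction (4.21%, and DEGs 0%). DESeq2 on all cows also called 0 members in these 3 contrasts and in GLY versus CON over all cows, where DEGs were 0% of all genes in edgeR. Between GLYLC and CONLC, *NQO1* had a value of -0.30 (SE 0.15, unadjusted p = 0.0549 in edgeR) and *CBR1* of -0.31 (SE 0.16, unadjusted p = 0.0566 in edgeR). The counts of 0 changed with single cows left out. The unadjusted p in edgeR was under 0.05 in 7 of 31 such refits for *NQO1*, in 4 for *CBR1* and in 1 for *GCLC*, and in 10 of 31 refits for *HMOX1* in GLY versus CON over all cows. In the interaction it was so in 5 refits for *GCLC* and in 1 each for *GCLM*, *CBR1* and *CBR3*, while no refit made any of them a DEG. In GLYLC minus CONLC, *CBR1* was -0.18 without GLYLC cow 912 and -0.42 without GLYLC cow 209, and *NQO1* was -0.19 without CONLC cow 260 and -0.40 without GLYLC cow 209. Over all cows the intervals of GLY minus CON ran from -0.37 to 0.07 for *NQO1*, from -0.37 to 0.08 for *CBR1*, from -0.47 to 0.30 for *GCLC* and from -0.44 to 0.33 for *CBR3* on the log2 scale. In the interaction 9 of the 10 genes had a positive value with a median of 0.30. Of all genes, 8224 of 15916 had a positive value, and their median was 0.01. Many members varied together over the same cows, so their signs are not separate observations. The values include CONLC cow 260, the highest cow in 5 members.

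A wider list of genes of the same pathways was also chosen with earlier results of these data known, so its shares are descriptive too. Of its 47 tested rows, 3 were DEGs between HC and LC over all cows, where 1.45% of all genes were. *ME1*, malic enzyme 1, which supplies NADPH, was lower in HC (log2 difference -0.71, SE 0.19, adjusted p = 0.0768 in edgeR). It ranged from 0.286 to 1.36 CPM in HC cows (median 0.863) and from 0.765 to 3.15 CPM in LC cows (median 1.24). *UGDH*, which makes the UDP-glucuronic acid used for glucuronidation, was also lower (-0.44, SE 0.12, adjusted p = 0.0860 in edgeR). Its levels ran from 220 to 416 CPM in HC (median 299) and from 224 to 663 CPM in LC cows (median 404). *FECH*, ferrochelatase, the last enzyme of heme synthesis, was higher (0.27, SE 0.07, adjusted p = 0.0682 in edgeR), with 28.6 to 39.7 CPM in HC (median 36.2) and 20.9 to 36.8 CPM in LC cows (median 28.3). HC and LC cows overlapped in all 3 genes.

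At an unadjusted p under 0.05, 12 of the 47 rows (25.5%, against 13.7% of all genes) differed between HC and LC, 5 of them higher and 7 lower in HC. By role, these were 0 of 9 for the control of NRF2, 2 of 9 for glutathione, 1 of 3 for thioredoxin, 3 of 6 for NADPH supply, 2 of 6 for heme and iron, 2 of 7 for detoxification and export and 2 of 7 for other carbonyl reductases. *TXN*, thioredoxin itself, had a log2 difference of -0.36 (SE 0.11, adjusted p = 0.107 in edgeR). It ranged from 48.4 to 102 CPM in HC and from 79.8 to 170 CPM in LC cows. *CBR4*, a mitochondrial carbonyl reductase, had a value of 0.16 (SE 0.07, adjusted p = 0.267 in edgeR) and *NFE2L1*, an NRF2 relative, of -0.08 (SE 0.05, adjusted p = 0.438 in edgeR). *SLC7A11*, the cystine transporter subunit, was close to 0 in nearly every liver, with a median of 0 CPM and 39 reads in all, so that its fitted value of -1.87 (SE 0.69) rests on few reads. In the other 6 contrasts 0 rows of this list were DEGs in edgeR, with between 2 and 14 rows at an unadjusted p under 0.05. These were 14 rows between CONHC and CONLC (29.8%, against 5.96% of all genes), 5 between GLYHC and GLYLC (10.6%, against 12.5%), 7 between GLYLC and CONLC (14.9%, against 5.65%), 3 between GLYHC and CONHC (6.38%, against 2.92%), 3 in the interaction (6.38%, against 4.21%) and 2 in GLY versus CON (4.26%, against 3.92%).

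Across the 31 cows, the levels of most pairs of members varied in the same direction. Of the 45 pairs of members, 39 had a positive Pearson's r on the log2 CPM scale, with a median of 0.238. A pair was taken as correlated when both r and Spearman's rho had an adjusted p under 0.1 in a two-sided permutation test with 100000 resamples, adjusted over the 45 pairs, and this held for 16 pairs, all of them positive. Among all pairs of the 10602 genes with a mean log2 CPM of at least 1, which leaves out *CBR3*, 49.6% had a positive r and 7.87% had an r of at least 0.401, the lowest value of the 16 pairs. The number of correlated pairs was 15 after the group means had been removed, 13 within CON cows, 5 within GLY cows, 10 within HC cows and 3 within LC cows. The subsets hold only 15 or 16 cows.

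**Figure D3:**
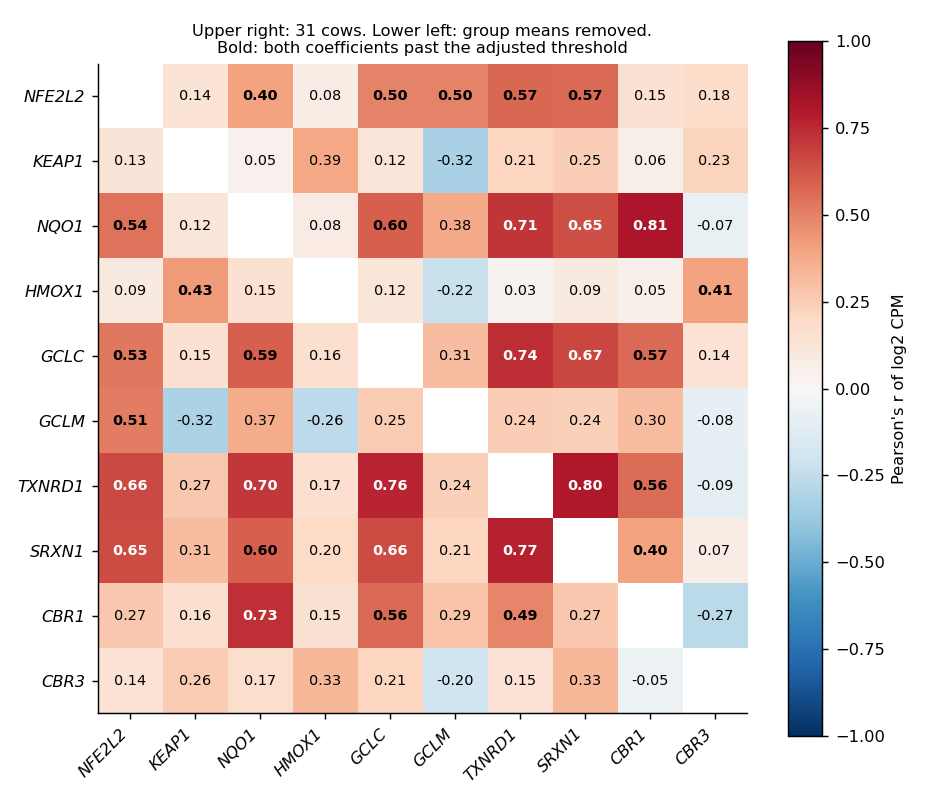
Pearson's r between the 10 genes on the log2 CPM scale, over all 31 cows (upper right) and after removal of the group means (lower left). Bold values passed the adjusted threshold in both coefficients; in the upper right most of them join *NFE2L2*, *NQO1*, *GCLC*, *TXNRD1*, *SRXN1* and *CBR1*, with *NFE2L2* and *GCLM* and with *HMOX1* and *CBR3* as further pairs, and *KEAP1* has none there.

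The strongest pair was *NQO1* and *CBR1* with r = 0.81 and rho = 0.802 (adjusted permutation p = 0.00015 and 0.00045, from the smallest raw p that the resamples could give, 1e-05). It was the pair that passed in every subset, with r = 0.845 within CON, 0.747 within GLY, 0.732 within HC and 0.803 within LC cows, and r = 0.791 without the 2 cows farthest from the *NQO1* median. *TXNRD1* and *SRXN1* had r = 0.801 and rho = 0.688 (adjusted permutation p = 0.00015 and 0.00105), and r = 0.66 without the 2 farthest cows. Within LC cows their rho of 0.475 did not pass (adjusted permutation p = 0.288).

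*GCLC* correlated with *TXNRD1* (r = 0.741, rho = 0.696, adjusted permutation p = 0.00015 and 0.00045), with *SRXN1* (r = 0.665, rho = 0.636, adjusted permutation p = 0.00063 and 0.00135) and with *CBR1* (r = 0.566, rho = 0.56, adjusted permutation p = 0.00355 and 0.0067). Without the 2 cows farthest from the *GCLC* median these r were 0.654, 0.638 and 0.508. *GCLC* with *TXNRD1* gave r = 0.797 within CON, 0.618 within GLY, 0.775 within HC and 0.74 within LC cows, of which those of CON and HC passed in both coefficients. The subunit pair *GCLC* and *GCLM* had r = 0.311 and rho = 0.306 and did not pass (adjusted permutation p = 0.2 and 0.225).

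*NFE2L2* itself correlated with 5 members. The values of r were 0.572 with *TXNRD1*, 0.568 with *SRXN1*, 0.499 with *GCLC*, 0.498 with *GCLM* and 0.401 with *NQO1*, and those of rho were 0.602, 0.55, 0.515, 0.469 and 0.398 (adjusted permutation p between 0.00355 and 0.0773). In the first 4 pairs the result remained whichever cow was left out, and r without the 2 farthest cows was 0.597, 0.657, 0.522 and 0.458. The relation with *NQO1* passed in 19 of 31 refits and had r = 0.292 without cow 260. It passed with r = 0.544 and rho = 0.558 after removal of the group means. Without the 2 cows farthest from the *NFE2L2* median it passed with r = 0.503 and rho = 0.448. *NFE2L2* with *TXNRD1* gave r = 0.687 within CON, 0.298 within GLY, 0.727 within HC and 0.605 within LC cows, so that it did not pass in GLY and LC cows. *KEAP1* correlated with none of its 9 partners, including *NFE2L2* (r = 0.135, rho = 0.122), and its lowest value was r = -0.323 with *GCLM*. Its highest was r = 0.389 with *HMOX1* (rho = 0.242, adjusted permutation p = 0.0816 and 0.353). That pair passed after removal of the group means (r = 0.426, rho = 0.423, adjusted permutation p = 0.0369 and 0.0614) and within CON cows (r = 0.722, rho = 0.694, adjusted permutation p = 0.00874 and 0.0328), but within GLY cows r was 0.239, and without the 2 cows farthest from the *KEAP1* median it was 0.198.

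The pair of carbonyl reductases did not pass the threshold (r = -0.266, rho = -0.295, permutation p = 0.147 and 0.107), and r was -0.052 once the group means had been removed. *CBR1* correlated with *NQO1*, *GCLC* and *TXNRD1*, and with *SRXN1* it passed over all cows (r = 0.403) but not after removal of the group means (r = 0.267). *CBR3* passed only with *HMOX1* (r = 0.405, rho = 0.403, adjusted permutation p = 0.0726 and 0.0773). That pair passed in 21 of 31 refits that left out 1 cow, fell to r = 0.277 without cow 208 and had r = 0.332 after removal of the group means.

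**Figure D4:**
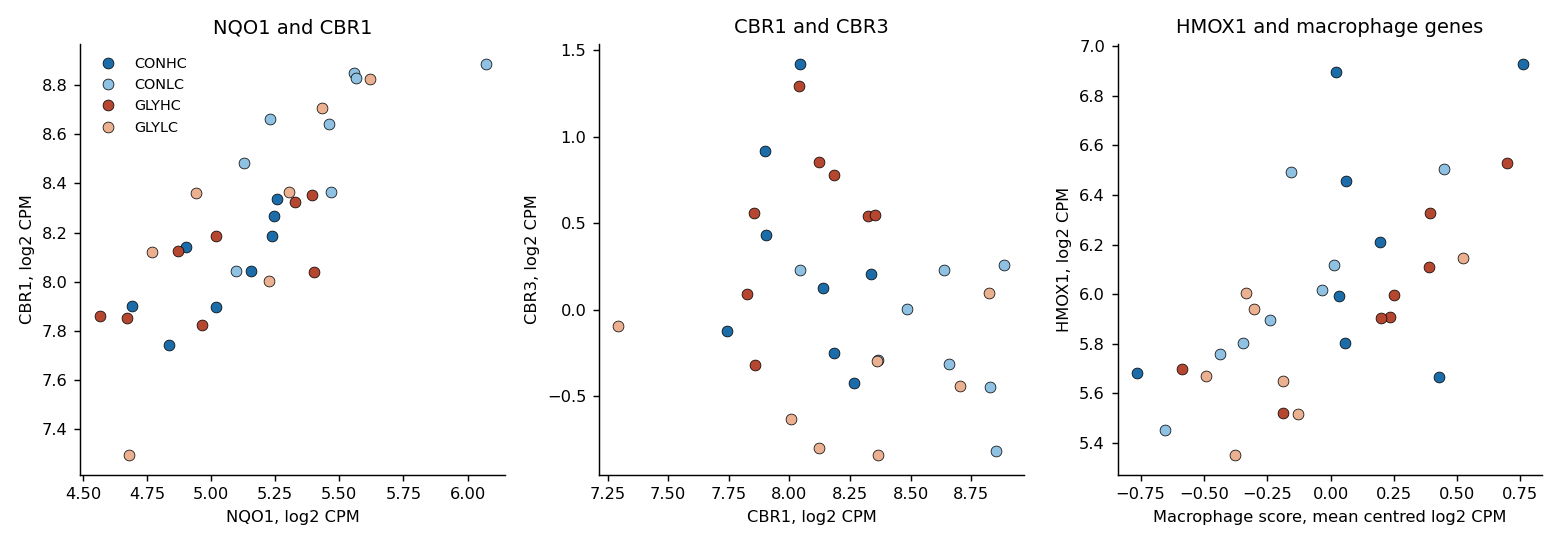
Each point is 1 of 31 cows, coloured by group, on log2 CPM axes. *NQO1* against *CBR1* rises across all groups (r = 0.81), *CBR1* against *CBR3* shows no common line (r = -0.266), and *HMOX1* rises with the macrophage score (r = 0.636), the mean of the centred log2 CPM of 8 macrophage genes.

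Single cows stood at the end of the range in several members. Cow 260 had the highest levels of *NQO1* (67.1 CPM), *GCLC* (145 CPM), *TXNRD1* (104 CPM), *SRXN1* (25.9 CPM) and *CBR1* (474 CPM), and was second highest in *NFE2L2* (129 CPM). Its hepatocyte markers summed to 125781 CPM, the lowest of its group, and only cow 912 was lower among all cows. Its bile duct markers summed to 65.35 CPM, the highest of all cows, where the next cow had 52.7 CPM. The list as a whole was not high in it. The mean of the centred log2 CPM of these markers was 0.0814 in cow 260, while the highest was 0.809 in CONLC cow 166. The *SRXN1* level of cow 260 was 3.08 times the median of all cows and its *GCLC* level 2.54 times. Cow 912 had the lowest *CBR1* (157 CPM) and *GCLM* (25.9 CPM), together with the lowest sum of hepatocyte markers (106099 CPM) and the high intestinal markers named above. With both cows left out, 15 of the 45 pairs were still correlated.

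**Figure D5:**
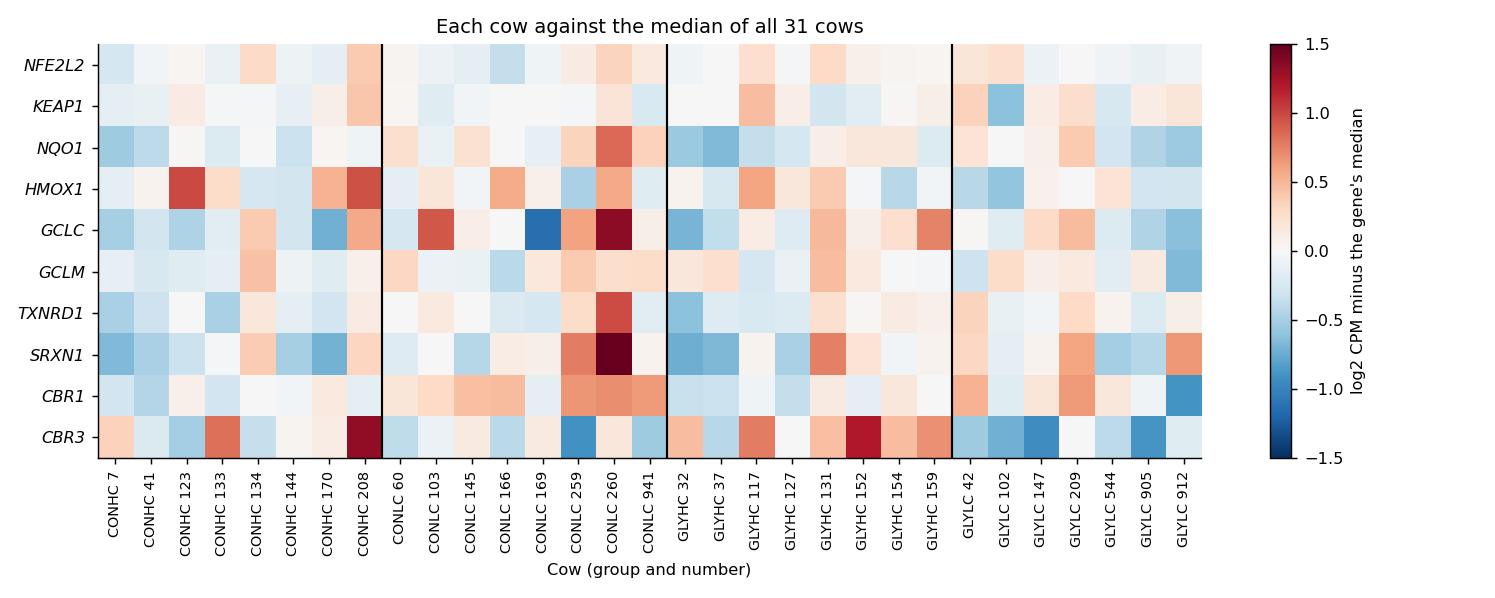
Log2 CPM of each of the 31 cows minus the median of all cows, for the 10 genes (rows), with cows ordered by group. The colour scale ends at 1.5 in either direction, and the *SRXN1* value of cow 260 lies beyond it; the same column is red in *NQO1*, *GCLC*, *TXNRD1* and *CBR1*.

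Markers of other cell types moved with the CFP beside the members, and their part in the results was not tested. Of 8 macrophage genes, 5 were higher in HC at an unadjusted p under 0.05 (against 13.7% of all genes in either direction) and 2 were DEGs (against 1.45%), *CD68* (log2 difference 0.61, adjusted p = 0.0948 in edgeR) and *CD5L* (0.41, adjusted p = 0.0860 in edgeR). Their sum ranged from 478 to 1308 CPM in CONHC, 590 to 1092 CPM in CONLC, 554 to 1349 CPM in GLYHC and 596 to 1116 CPM in GLYLC. Stellate and fibroblast genes were lower in HC in 6 of 6 at an unadjusted p under 0.05, of which *DCN* was a DEG (-0.50, adjusted p = 0.0275 in edgeR). Their sum ranged from 172 to 295 CPM in CONHC, 151 to 2228 CPM in CONLC, 124 to 196 CPM in GLYHC and 196 to 360 CPM in GLYLC. Intestinal genes were lower in HC in 7 of 7, with 4 DEGs. Of all 15916 genes, 1243 were lower and 936 were higher in HC at an unadjusted p under 0.05 in edgeR. DEGs lower in HC made up 0.773% of all genes, and DEGs higher in HC 0.679%. Without cow 912, 2 of the intestinal genes had enough reads to be tested and 0 had an unadjusted p under 0.05 in edgeR. The macrophage genes at an unadjusted p under 0.05 remained 5 in number without cow 912 or without cow 103, but the DEGs among them were 0 in either case, and the stellate and fibroblast genes were 5 and 4 of 6. The macrophage genes were the list that moved with a member. *HMOX1* correlated with the macrophage score (r = 0.636, rho = 0.645, adjusted permutation p = 0.0117 and 0.0135), which was the only 1 of 90 relations between members and marker scores or depth to pass.

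The *HMOX1* relation had r = 0.642 after removal of the group means and 0.632 without the 2 cows farthest from the *HMOX1* median. Within CON, GLY, HC and LC cows r was 0.627, 0.78, 0.555 and 0.669, though no subset passed the adjusted threshold in both coefficients. *CBR3* had r = 0.468 and rho = 0.515 with the same score and did not pass (adjusted permutation p = 0.189 and 0.102). *CBR1* had r = -0.1 with the macrophage score and r = 0.057 with the log2 number of assigned reads, and *CBR3* had r = -0.089 with the latter (adjusted permutation p of r between 0.959 and 0.978).

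Over 10602 genes with a mean log2 CPM of at least 1, the genes most like *NFE2L2* across the 31 cows by Spearman's rho after removal of the group means were *GSR* (0.815), *NOC3L* (0.698) and *NACA* (0.693). *GSR* encodes glutathione reductase, which regenerates reduced glutathione. For *NQO1* they were *APOOL* (0.86), *CMBL* (0.852) and *ENO1* (0.808), and for *CBR1* they were *BLVRB* (0.878), *HEMK1* (0.799) and *ENO1* (0.794). *BLVRB* encodes biliverdin reductase B, and *ENO1* encodes the glycolytic enzyme enolase 1. The genes most like *CBR3* were *TUBB2A* (0.768), *BRF2* (0.687) and *TFE3* (0.675). Other members often ranked far below these. For *NFE2L2*, *SRXN1* ranked 9, *TXNRD1* 11, *GCLC* 59 and *NQO1* 61. For *NQO1*, *CBR1* ranked 24, *TXNRD1* 135, *GCLC* 325, *NFE2L2* 337 and *SRXN1* 365. For *CBR1*, *NQO1* ranked 27, *TXNRD1* 285, *GCLC* 519 and *SRXN1* 1333, so that many genes outside the set ranked above the other members. The ranking carries no test.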

How the data were processed

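Gene counts of 31 liver libraries were used, 1 per cow. According to the study's methods and the submitters' processing notes, the authors trimmed reads with Trim Galore, aligned them to UMD3.1 with HISAT2 2.1.0 and assigned uniquely mapped reads to genes with HTSeq 0.8.0. The library kit kept strand. Whether HTSeq counted by strand is not given in the sources used here. The deposited values are raw counts per gene. The authors' normalised count table, made with DESeq2 1.20.0, was not used.

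Genes with fewer than 20 reads summed over all cows were removed. Counts were scaled by TMM and tested in 7 contrasts with edgeR 4.0.16 in R 4.3.3, after the scripts had been tested on simulated data. All cows entered each quasi-likelihood fit. A fit of the 4 group means gave the comparisons between single groups and the interaction. HC versus LC and GLY versus CON over all cows came from a separate fit. That fit held the residue ration and the CFP as factors, without their interaction. P-values were adjusted by Benjamini-Hochberg over all genes. DESeq2 1.42.0, other scalings, filters and subsets of cows served as alternatives, and the refits without cows 260 and 912, and for marker lists without cow 912 or cow 103, were added after the data had been seen. Correlations used log2 CPM with a prior count of 2. Their permutation tests were written with NumPy 2.4.6, and the ranks came from SciPy 1.17.1.

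The members and all lists were chosen with earlier results of these data known. Named were the 10 members, every DEG of the wider list, the gene with the smallest unadjusted p in each of its role groups, and the 3 genes most like *NFE2L2*, *NQO1*, *CBR1* and *CBR3*. *GSK3B*, *ABCC4*, *SOX9* and *CDX2* matched no symbol and were not analysed here, a second *DCXR* row and *HBA* had too few reads, and *GSTA3* had 2 rows. RefSeq gene order came from another build (ARS-UCD2.0), so no coordinates are given. Assigned reads per library ranged from 11675775 to 36675542, and among the members *CBR3* had the fewest reads (668 in all).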

Additional observations from a re-analysis of the deposited data

Results flagged for a closer look

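Each of the 17 named pathway genes was checked in each feeding group for a cow whose distance to its nearest neighbour was large against the range of the group (Dixon's ratio), and 9 of the 68 groups held one. Without *SLC7A11*, whose values rest on single reads and cannot be set against a chance rate, there were 7 of 64, where chance gives about 1 in 20. Among the members, *KEAP1* was 64.0 CPM in CONHC cow 208 (other cows 43.6 to 52.2), *GCLM* was 55.5 CPM in CONHC cow 134 (34.8 to 43.2) and *TXNRD1* was 104 CPM in CONLC cow 260 (43.9 to 63.5).

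In the wider list, *UGDH* was 224 CPM in CONLC cow 169 (403 to 663) and *CBR4* was 115 CPM in the same cow (85.9 to 96.9). *ME1* was 0.531 CPM in CONHC cow 144 (0.822 to 1.12), and *FECH* was 22.5 CPM in CONLC cow 166 (27.9 to 33.7). *SLC7A11* was 0.657 CPM in GLYLC cow 912 (0 to 0.0532) and 0.056 CPM in CONHC cow 133, where the other CONHC cows were at 0.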

How the results depend on the processing

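No paired analysis was possible because the animal numbers are unique to each cow and are not shared between groups. Of the 10 members, 2 were DEGs between HC and LC over all cows, 0 at an adjusted p under 0.05, 1 (*CBR3*) with no filter on low counts, and between 1 and 2 when each cow was left out in turn. Between CONHC and CONLC 2 members and 6 rows of the wider list were DEGs with DESeq2 on only the compared groups, against 0 in edgeR. Between GLYHC and GLYLC 1 member (*CBR3*) was a DEG with DESeq2, whether fitted on all cows (either filtering) or just these groups, and between 0 and 1 when a cow was left out. The wider list had 3 DEGs between HC and LC over all cows, 0 at an adjusted p under 0.05, 5 with DESeq2 on all cows with either filtering, and between 0 and 5 when a cow was left out (0 without GLYHC cow 32, 5 without GLYLC cow 102). Correlated pairs were 16 over all cows, 5 within GLY, 10 within HC and 3 within LC cows, and between 13 and 17 when a cow was left out. Relations of members with marker scores were 1 over all cows, 2 with a prior count of 0.5, 6 without the 2 farthest cows, 4 without cows 260 and 912, 0 within CON, GLY, HC or LC cows, and between 1 and 2 when a cow was left out. The DEGs among all genes moved more widely: between HC and LC over all cows there were 231, and between 83 and 404 when a cow was left out. In GLYHC versus GLYLC there were 32, with 0 to 150, and in GLYLC versus CONLC 10, with 0 to 41. No member that was called changed direction under any of these settings. The cause of these differences was not tested.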

Other observations

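Without CONLC cow 260 and GLYLC cow 912, *GCLM* was correlated negatively with the macrophage (r = -0.517, rho = -0.51), endothelial (r = -0.539, rho = -0.509) and lymphocyte scores (r = -0.563, rho = -0.519), with adjusted permutation p between 0.0637 and 0.0988 over 90 relations. Over all 31 cows none of these relations passed. The choice of these cows was made after their values had been seen.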
